A study of Rattus norvegicus with 3 samples.

Results

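The genes examined were Il33, which encodes the cytokine interleukin-33, and Il1rl1, which encodes its receptor ST2. They are 2 of the 34034 features counted in both libraries and were chosen by name, as a ligand and its receptor. The thymi came from Lewis rats, an inbred strain, aged 8 weeks, for which the labels name no treatment or altered allele. One library held stromal cells freed with Liberase TH and DNase I, enriched as CD45-negative by autoMACS and sorted by flow cytometry. The other held thymocytes, freed with collagenase D and DNase I. A Stereo-seq section was also made, but the deposited section tables hold no counts per gene and were not used here. Each group had 1 sample, so no test between groups was possible. Intervals are 95% intervals for counting error only, and the spread between rats is not known. How many rats gave each library, and which transcript end the 10x kit read, is not given in the sources used here.

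Interleukin-33 is a member of the IL-1 family that is stored in the nucleus of epithelial, endothelial and fibroblastic cells and acts as an alarm signal once released. It binds ST2, which recruits the accessory protein encoded by Il1rap and signals through MyD88, IRAK kinases and TRAF6 to NF-κB. A soluble form of ST2, made from the same gene, traps the cytokine. ST2 is best known on mast cells, type 2 innate lymphoid cells and a subset of regulatory T cells. The counts do not separate the soluble from the membrane form.

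RefSeq lists 2 start sites for Il33 and 1 for Il1rl1, and the 250 bases before each are shown because they are the sequence nearest to where transcription of the 2 genes begins. All 3 are read on the plus strand of GRCr8, 5′ to 3′, with capitals marking matches to the motifs searched.
Il33 start 1, chr1:237115323-237115572: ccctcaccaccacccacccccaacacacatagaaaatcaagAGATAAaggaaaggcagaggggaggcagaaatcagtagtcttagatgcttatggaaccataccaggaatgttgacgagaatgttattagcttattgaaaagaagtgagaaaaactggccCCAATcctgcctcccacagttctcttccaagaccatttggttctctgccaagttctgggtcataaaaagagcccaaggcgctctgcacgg
Il33 start 2, chr1:237134696-237134945: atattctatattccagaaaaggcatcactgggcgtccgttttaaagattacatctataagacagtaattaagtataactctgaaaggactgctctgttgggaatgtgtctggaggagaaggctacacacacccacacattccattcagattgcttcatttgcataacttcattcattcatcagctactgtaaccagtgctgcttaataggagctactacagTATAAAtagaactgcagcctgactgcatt
Il1rl1, chr9:50203388-50203637: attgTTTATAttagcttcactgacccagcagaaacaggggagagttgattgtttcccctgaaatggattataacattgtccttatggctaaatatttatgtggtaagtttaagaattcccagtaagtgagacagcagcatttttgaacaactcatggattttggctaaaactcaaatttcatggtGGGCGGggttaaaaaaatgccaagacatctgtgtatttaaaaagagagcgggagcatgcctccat
The 2 Il33 starts lie 19373 bases apart. Both strands were searched for a TATA box (TATAAA), for the CCAAT box (CCAAT), an Sp1 GC box (GGGCGG), and the motifs of GATA factors (AGATAA), AP-1 (TGANTCA) and STAT factors (TTCNNNGAA). The window of Il33 start 1 held a CCAAT match at position -90 and a GATA match at -209, counted from the start site. The window of start 2 held a TATA match at -29. The Il1rl1 window held a GC box at -65 and a TATA match at -246. Among 33469 windows of the same length, 34.0% held CCAAT, 30.5% the GC box, 12.9% TATAAA, 10.3% the GATA letters, 7.67% the STAT and 6.34% the AP-1 letters. These matches are letters only, and the libraries do not tell which Il33 start was used.

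The stromal library had 16160 barcodes, of which the authors annotated 13226, with a median of 9087.5 UMIs (molecules counted once by their identifier) per cell and 29 labels. The thymocyte library had 8574 barcodes, of which 8546 were annotated, with a median of 3994 UMIs and 25 labels. Levels are UMIs of the gene per 1000000 UMIs of all cells of a label (CPM), for the 24 stromal and 21 thymocyte-library labels with at least 20 cells. The libraries shared 28 annotated barcodes, and none of the cells with an Il1rl1 UMI had a shared barcode. Cells of 1 library are not replicates.

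Il33 was a transcript of the stroma and Il1rl1 was close to absent from both libraries. In annotated stromal cells Il33 reached 1222 CPM (1216 to 1228), with at least 1 UMI in 84.7% of cells. Annotated cells of the thymocyte library had 2.75 CPM (2.36 to 3.18), from 177 UMIs in 17 cells. The stromal level was 445-fold higher; 33.3% of the 21119 genes compared were at least 3-fold higher in that direction. A single cell of the thymocyte library held 84 of its Il33 UMIs, and without it the level there was 1.44 CPM and the ratio 846. Il1rl1 had 32 UMIs in 20 stromal cells (0.243 CPM, 0.166 to 0.343). The thymocyte library had 28 Il1rl1 UMIs in 12 cells (0.435 CPM, 0.289 to 0.628). The intervals of the Il1rl1 levels overlap between the libraries. Stromal Il1rl1 was 0.141 CPM without the cells at or above the 99th percentile of UMIs of their label, and the thymocyte-library level was 0.202 CPM without its 1 cell with 15 UMIs.

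Il33 levels formed a graded order across the stroma rather than marking 1 cell type. The highest level was in TMC4, a mesenchymal label rich in the chemokine transcripts Ccl19 (13615 CPM) and Ccl21 (22085 CPM), which attract CCR7-bearing thymocytes. TMC4 had 2872 CPM of Il33 (2841 to 2903; 33186 UMIs in 1249 cells). The labels cTEC, the usual short name of cortical thymic epithelial cells, with 2181 CPM (2140 to 2222) and early Pr with 2046 CPM (2020 to 2071), both epithelial, came next. TMC3 had 1859 CPM, capFb 1430, the endothelial label vEC 1348, aaTEC2 1258 and mTEC1 1256, the last being a label of medullary epithelium. The 29 cells of aaTEC2 held 29381 CPM of the 6 mesenchymal markers and 595 CPM of the 5 epithelial ones. The part of mesenchymal RNA in their Il33 was not tested. The mural label vSMC/PC had 999 CPM, and the mesenchymal labels TMC1 and TMC2 had 649 and 612. The lowest labels were aaTEC1 at 190 CPM, mimetic(tuft) at 174 (112 without 1 of its 25 cells), Myeloid at 148 and mimetic(muscle) at 94.1. Highest and second label differed by 1.32-fold (1.29 to 1.35), and 4.55% of the 19880 genes with enough UMIs had a highest label at least 3-fold above the next.

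**Figure D1:**
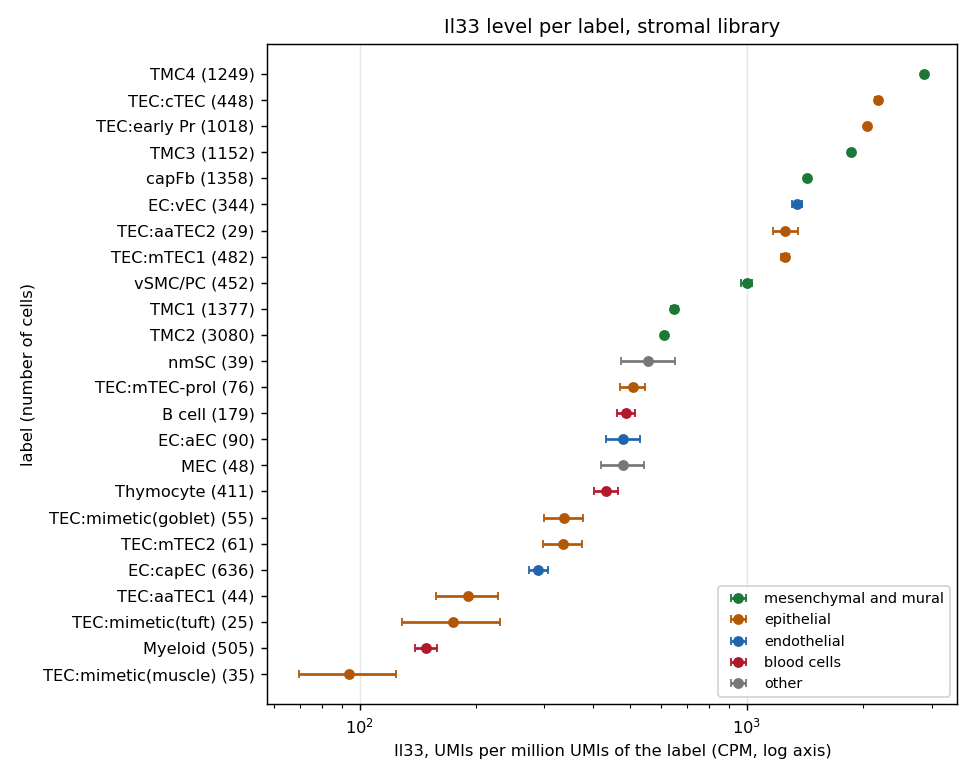
Il33 level (CPM, log axis) in the 24 stromal labels with at least 20 cells; points are levels, bars are exact Poisson 95% intervals for counting error, colours give the tissue class and numbers in brackets are cells. Levels descend from 2872 CPM in TMC4 to 94.1 CPM in mimetic(muscle), with mesenchymal, epithelial and endothelial labels interleaved. Classes follow the label names.

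Neighbours in this order were often indistinguishable. From TMC4 to vEC each step exceeded counting error, the smallest being capFb over vEC at 1.06-fold (1.03 to 1.09). The variance of UMIs per cell was 21.2 times the mean in vEC and 9.51 times in capFb, against 1 for counting noise alone. Counting error leaves out this spread between cells, depth included. Whether such small steps exceed it was not tested. No difference beyond counting error was seen between vEC and aaTEC2 (ratio 1.07, 0.989 to 1.16) or between aaTEC2 and mTEC1 (ratio 1.00, 0.925 to 1.08). The 7 labels from TMC2 at 612 CPM through nmSC, mTEC-prol, B cell, aEC and MEC to Thymocyte at 432 CPM each had a ratio to the next, within that run, whose interval held 1. The same was so for mimetic(goblet) and mTEC2, for aaTEC1 and mimetic(tuft), and for mimetic(tuft) and Myeloid.

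Within the mesenchyme, Il33 set TMC4 apart from TMC1 and TMC2, and less so from TMC3, capFb and vSMC/PC. TMC4 was 4.69-fold above TMC2 (4.61 to 4.78), where 8.25% of 15282 genes were at least 3-fold higher in TMC4. It was 4.43-fold above TMC1 (4.32 to 4.53), where 8.88% of 14593 genes were. Over TMC3 the ratio was 1.55 (1.52 to 1.57), below the 3-fold mark that 2.13% of genes passed. Ratios over capFb, 2.01 with 13.0% of genes past 3-fold, and over vSMC/PC, 2.88 with 4.55%, also stayed under it. The TMC4 level over cTEC (1.32) compares with 11.9% of genes past 3-fold between these labels.

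Among endothelial labels, vEC stood above the others. Its 1348 CPM was 4.66-fold (4.38 to 4.95) the 289 CPM of capEC, where 2.05% of 12329 genes were at least 3-fold higher in vEC. It was 2.81-fold (2.53 to 3.13) the 479 CPM of aEC, where 1.96% of genes passed 3-fold. The authors' clusters divided these labels: capEC cells in cluster Endo-2 had 631 CPM and those in Endo-1 had 201 CPM, a ratio of 3.14 (2.81 to 3.51). In aEC the corresponding ratio was 3.61 (2.85 to 4.61), whereas vEC cells had 1424 CPM in Endo-1 and 1011 in Endo-2, the opposite order. Endo-2 cells of all 3 labels also carried mesenchymal transcripts, and the part of these in the Il33 values was not tested. Dcn was at 7431 CPM in Endo-2 against 257 in Endo-1 for capEC, at 6386 against 155 for aEC and at 6655 against 246 for vEC. Col3a1 was at 4821 against 226, 6923 against 227 and 6287 against 193 CPM in the same order.

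In the epithelium, Il33 was high in cTEC, early Pr and mTEC1 and low in the labels of mature or specialised medullary cells. cTEC was 6.51-fold (5.80 to 7.34) above mTEC2 at 335 CPM, a label that held the Aire transcript, the regulator of self-antigen display, at 468 CPM. Of 13046 genes, 7.99% were at least 3-fold higher in cTEC than in mTEC2. mTEC1 was 3.75-fold (3.34 to 4.23) above mTEC2, with 5.88% of 13597 genes past 3-fold. Ratios of cTEC over mTEC1 (1.74) and of early Pr over mTEC1 (1.63) were smaller, with 2.14% and 1.70% of genes past 3-fold. In mTEC2, 1 cell supplied 34.5% of the Il33 UMIs (101 of 293), and the level without it was 225 CPM.

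The cTEC label joined cells with very different levels of Il33. Of its 448 cells, the authors' clusters placed 311 in TEC-b, 72 in TEC-a and 55 in TEC-c. cTEC-labelled cells of TEC-b had 2667 CPM of Il33 and those of TEC-a had 93.6 CPM, a ratio of 28.5 (21.9 to 37.9), where 16.3% of 11097 genes were at least 3-fold higher in TEC-b. Cells of TEC-a were shallower, with a median of 4518.5 UMIs against 10757. The clusters were built from the same transcripts, so these values describe the clusters and are no test.

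Marker genes of the cortex did not single out the high cells. The cTEC label had the highest summed level of the 5 cTEC markers among the labels (1731 CPM, all 5 detected). It also had the highest sum of the 5 mTEC markers (7317 CPM). In its TEC-b cells that sum lay mostly in the keratin genes Krt5 and Krt14, with no UMI of Aire or Fezf2. Ccl25, a chemokine of the cortical epithelium, was 8.66-fold higher (7.96 to 9.42) in the TEC-a cells, at 2348 against 271 CPM. Psmb11, the thymoproteasome subunit, was 5.55-fold higher there (2.99 to 10.3), at 39.1 against 7.06 CPM. The endocytic receptor gene Ly75 went the other way, at 191 CPM in TEC-a and 1153 in TEC-b. The keratin gene Krt14 (167 against 5370 CPM), Krt5 (556 against 3954) and the adhesion gene Epcam (71.5 against 1175) were likewise lower in TEC-a. Other keratins went the opposite way, with Krt8 (1064 against 708 CPM) and Krt18 (711 against 455) higher in TEC-a. Of the remaining epithelial markers, Cdh1 (13.6 against 153 CPM) was lower there, and Cldn3 had 1 UMI in TEC-a. Prss16, a cortical protease, had 145 CPM in TEC-a, in 44.4% of cells, and 228 CPM in TEC-b, in 22.5% of cells. Foxn1, the master regulator of thymic epithelium, had 35.7 and 63.2 CPM. Most Il33 of the label thus lay in its Krt5- and Krt14-rich cluster TEC-b, with 9069 of 10876 UMIs. Ccl25 was found in 77.8% of the TEC-a cells and in 16.4% of the TEC-b cells. Il33 in the Ccl25-bearing cells of TEC-b was not measured apart.

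**Figure D2:**
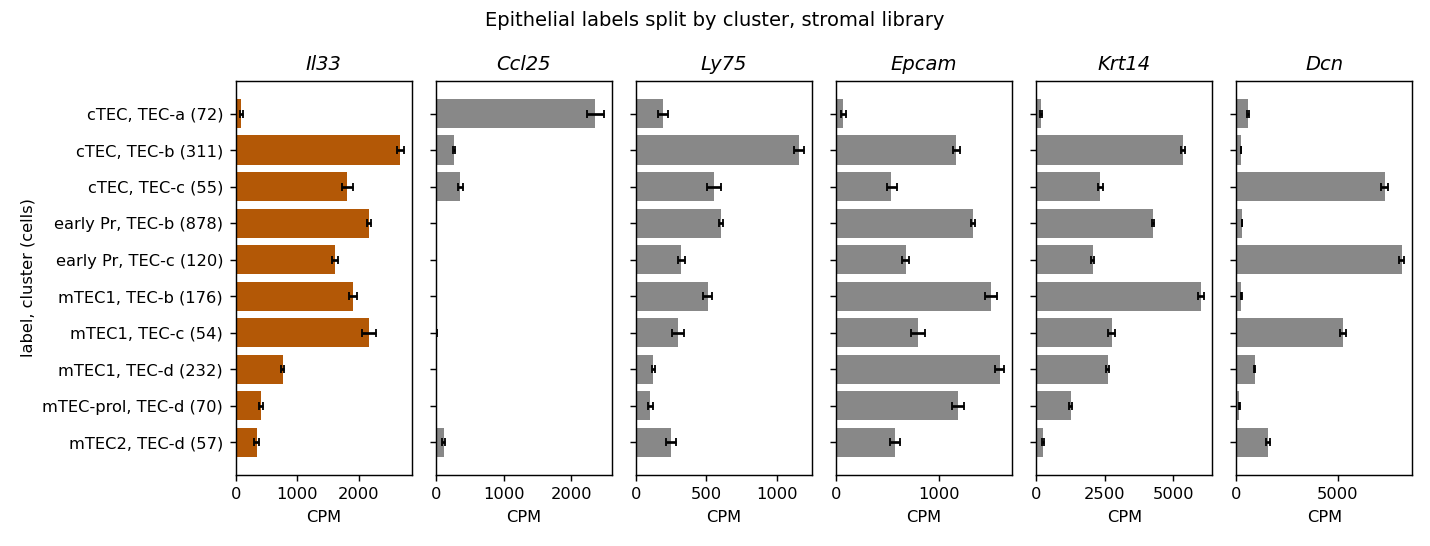
Level (CPM, linear axes from 0) of Il33 and 5 marker genes in epithelial labels split by the authors' clusters, with the number of cells in brackets; bars end at the level and error bars are exact Poisson 95% intervals. cTEC cells of TEC-a hold 93.6 CPM of Il33 with 2348 CPM of Ccl25, and those of TEC-b hold 2667 CPM of Il33 with 5370 CPM of Krt14.

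TEC-c cells carried stromal collagen transcripts together with Il33. cTEC-labelled cells of TEC-c had 1813 CPM of Il33 beside 7323 CPM of Dcn and 5880 CPM of Col3a1, both mesenchymal matrix genes, and their median depth was 17483 UMIs. The 47 cTEC-labelled cells without a UMI of the 6 mesenchymal markers had 2567 CPM of Il33. Dcn and Col3a1 were each found in 96.4% of the cTEC-labelled cells of TEC-c, so that value hardly bears on them, and the part of mesenchymal RNA in their Il33 was not tested. mTEC1 was also split, with 1903 CPM in TEC-b, 2162 in TEC-c and 763 in TEC-d. The TEC-b cells of mTEC1 were 2.50-fold (2.37 to 2.62) above those of TEC-d, where 3.35% of 12232 genes were at least 3-fold higher. early Pr was more even, at 2163 CPM in TEC-b and 1611 in TEC-c.

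Spread between cells differed between the leading labels. In TMC4 the median cell had 20 Il33 UMIs and 2319 CPM, with 465 CPM at the 5th and 5881 at the 95th percentile of cells. cTEC had the same median of 20 UMIs and 1844 CPM, but its cells ran from 0 at the 5th to 5086 CPM at the 95th percentile. early Pr was narrower, from 602 to 4219 CPM around a median of 1849. Cells without an Il33 UMI made up 1.20% of TMC4, 10.5% of cTEC and 0.491% of early Pr. If every cTEC cell had held Il33 at the level of the label, 0.562% of cells would have had none at their depth. Of the cTEC-labelled cells of TEC-a, 59.7% were at 0, and of those of TEC-b 0.322%.

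A gradient with depth ran through TMC4. Its level rose over 4 bins of cells by depth, from 1836 CPM at a median of 5003 UMIs through 2701 and 2832 to 3327 CPM at a median of 13767.5. cTEC had 1436, 2296, 2728 and 1943 CPM over its bins, with no steady rise. To give all cells equal sampling, each was thinned to 3000 UMIs, leaving out the 765 stromal cells below that. The variance was then divided by the mean (Fano factor, 1 for counting noise alone). Thinning leaves the rise of the TMC4 level with depth in its spread. The Fano factor was 5.84 in vSMC/PC, 4.54 in cTEC, 4.36 in TMC3, 4.16 in vEC, 4.07 in TMC4, 3.40 in mTEC1 and 2.51 in early Pr. It was 2.04 in capFb and 1.83 in TMC2. Each factor is from 1 random draw, and another draw of the same cells gave 5.49 in vSMC/PC, 4.32 in TMC3 and 1.88 in TMC2. Close factors are therefore not ranked. The factor grows with the mean, and the SD over the mean at the same depth gave another order. Counting noise raises this second ratio where the mean is low, so neither order is free of the level. That ratio was 0.638 in early Pr, 0.701 in capFb, 0.706 in TMC4, 0.814 in cTEC, 0.896 in TMC3, 0.991 in TMC2, 1.06 in vEC and 1.50 in vSMC/PC. Only vSMC/PC was highest among these labels by both measures. The B cell label, not among them, was higher by both, at 6.65 and 2.26 on a thinned mean of 1.31 UMIs. Another draw of its cells gave 5.59 and 2.06. Within cTEC the Fano factor was 3.74 in TEC-b and 1.13 in TEC-a, on thinned means of 8.06 and 0.370 UMIs, and the SD over the mean was 0.681 and 1.75. Both TEC-a values are affected by its low mean.

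**Figure D3:**
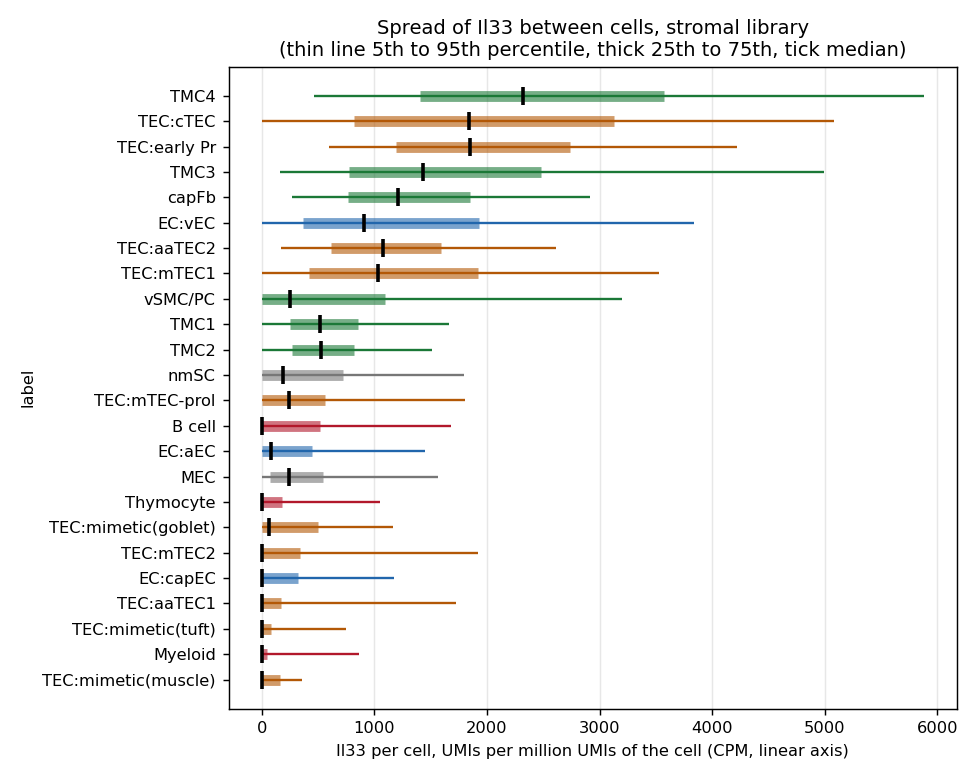
Il33 per cell (CPM, linear axis) in the 24 stromal labels; thin lines span the 5th to 95th percentile of cells, thick bars the 25th to 75th, and ticks mark the median. TMC4 reaches 5881 CPM at its 95th percentile, cTEC spans 0 to 5086, and the vSMC/PC median of 253 CPM lies far below its pooled level of 999.

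Il33 was uneven between the cells of the mural label vSMC/PC. Its median cell had 253 CPM against a pooled 999, and 37.6% of its 452 cells were at 0 where 1.89% would be with an even level. Over 409 of its cells, Il33 per cell ranked with Ccl19 (Spearman rho 0.59), Col3a1 (0.54), Lum (0.51) and Dcn (0.48). It ranked against the pericyte genes Notch3 (-0.40) and Rgs5 (-0.39) and the contractile gene Acta2 (-0.30). Dcn was found in 70.8% of the vSMC/PC cells, and the part of mesenchymal RNA in their Il33 was not tested. In TMC4, over 1213 cells, the highest rank correlation among the listed genes was with Ccl19 (0.40), followed by Cxcl12 (0.29) and Ccl21 (0.26). In cTEC, over 411 cells, Krt5 (0.57), Epcam (0.54), Krt14 (0.53) and Cxcl12 (0.48) ran with Il33 and Prss16 ran slightly against it (-0.23). The cTEC markers went both ways, with Ly75 at 0.18 and Foxn1 at -0.13. Of the other epithelial markers, Cdh1 was at 0.098, Krt8 at -0.015 and Krt18 at -0.082. In mTEC1, over 454 cells, Cxcl12 was at 0.62, Krt14 at 0.46 and Fezf2, a regulator of medullary antigen genes, at -0.39. All cells of a label come from 1 library, so these correlations describe that library.

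Free RNA has to be read beside these levels, because blood cell labels in the stromal library also held Il33. Of the 411 cells labelled Thymocyte there, 27.7% had an Il33 UMI at a median depth of 2648 UMIs, against 98.8% of TMC4 cells at 8717. The 39 cells labelled Myeloid without a UMI of 16 stromal markers had 6.90 CPM (0.836 to 24.9, 2 UMIs), and the 280 with 3 or more had 208 CPM. Thymocyte cells had 62.1 CPM without those markers (22.8 to 135, 6 UMIs in 36 cells). They had 85.1 CPM with 1 to 2 and 576 CPM with 3 or more. An Il33 UMI was found in 16.7%, 11.3% and 43.0% of these cells, so the share did not rise steadily. Cells labelled B cell had 23.9 CPM with 1 to 2 (7 UMIs in 31 cells) and 540 with 3 or more. The part of free RNA or of joined cells in the blood cell values was not tested, and no doublet caller was run. After thinning each cell to 1000 UMIs, which left out 83 stromal cells, 84.1% of TMC4 and 70.8% of cTEC cells had an Il33 UMI, against 14.0% of Thymocyte cells. On this scale mimetic(muscle) at 11.4%, Myeloid at 9.34% and mimetic(tuft) at 4% lay at or below the Thymocyte share, so no expression is read from them. The Thymocyte cells are no clean floor, since they held 12069 CPM of the mesenchymal markers. capEC at 15.7%, aaTEC1 at 16.3% and mimetic(goblet) at 18.2% were little above it.

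In the thymocyte library, most Il33 UMIs sat in a few cells. The 24 labels other than B+myeloid held 6 Il33 UMIs in 8376 cells, or 0.0967 CPM (0.0355 to 0.210). B+myeloid held the other 171 UMIs, in 11 of 170 cells, and 1 cell supplied 84 of them (49.1%). The level of the label was 71.5 CPM with that cell and 36.9 CPM without it. That cell had 47 UMIs of the 5 epithelial markers. The next had 24 Il33 UMIs and 323 UMIs of mesenchymal markers. None of the 8 cells with more than 1 Il33 UMI had a UMI of the B cell or myeloid markers, so the label does not describe them.

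Il1rl1 UMIs were spread thinly, apart from 1 cell in each library. In the stromal library 18 of 20 positive cells had 1 UMI, and 1 cell had 10 of the 32 UMIs (31.25%). This cell was labelled MEC but held all 7 mast cell markers and none of the mesothelial ones that the label otherwise showed at 5525 CPM. Its counts were 334 UMIs of Cpa3 and 275 of Cma1, both mast cell proteases, 91 of the tryptase gene Tpsab1, 37 of Fcer1a and 17 of Ms4a2, which encode the IgE receptor, 12 of Kit and 6 of Hdc. A TMC3 cell with 4 UMIs followed, which held no mast cell marker.

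In the thymocyte library 1 cell of B+myeloid had 15 of the 28 Il1rl1 UMIs (53.6%), and it held 4 of the 7 mast cell markers, with 93 UMIs of Cma1, 11 each of Ms4a2 and Fcer1a and 5 of Hdc, but none of Cpa3, Tpsab1 or Kit. A cell labelled AgoSel1 had 2 UMIs. By a rule chosen after these values were seen, cells with at least 3 mast cell markers numbered 4 in the stromal library, with 11 of 32 Il1rl1 UMIs, and 1 in the thymocyte library, with 15 of 28. With at least 5 markers they numbered 1, with 10 of 32 UMIs, and 0.

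**Figure D4:**
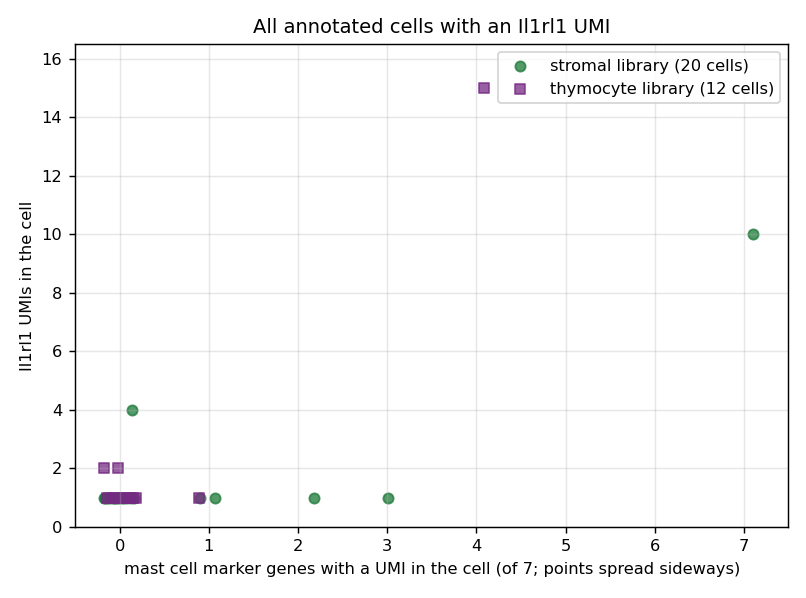
Each point is 1 annotated cell with an Il1rl1 UMI, 20 in the stromal and 12 in the thymocyte library; the x axis counts mast cell marker genes with a UMI (of 7, points spread sideways) and the y axis counts Il1rl1 UMIs. The cells with 10 and 15 Il1rl1 UMIs hold 7 and 4 mast cell markers, and no other cell exceeds 4 UMIs.

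Regulatory T cells were the only T cell label with more than 2 Il1rl1 UMIs. Treg held 3 UMIs in 2 of its 37 cells, at a median depth of 8183 UMIs (9.47 CPM, 1.95 to 27.7). The 2 cells each held 4 of the 5 Treg markers Foxp3, Il2ra, Ctla4, Ikzf2 and Tnfrsf18. The cell with 2 Il1rl1 UMIs lacked Foxp3, and the other lacked Il2ra. The 7073 cells of the 7 labels from DN to DP-sig held 3 UMIs (0.0608 CPM, 0.0125 to 0.178). Treg and Pre-Treg joined, at 3.93 CPM (0.810 to 11.5), lay above that, on 3 UMIs in 2 of 92 cells. AgoSel1 and AgoSel2 joined had 1.76 CPM (0.213 to 6.34), and their interval overlaps that of Treg and Pre-Treg. Both of their UMIs came from 1 cell of 128, so no rank above the DN to DP-sig labels is read from them. gdT and NKT joined had 0.690 CPM (0.0835 to 2.49), with an interval that overlaps all of these. No Il1rl1 was seen in 5202 DP cells, which allows up to 0.159 CPM.

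The high-Il33 stroma had next to no receptor transcript. TMC4 had 2 Il1rl1 UMIs in 1249 cells, each in a cell of its own, and TMC3 had 7 in 4 cells. cTEC had none in 448 cells, which allows up to 0.670% of cells with a UMI and 0.602 CPM. mTEC1, vEC and capEC also had none, allowing up to 0.466, 0.829 and 0.674 CPM. Levels of Il1rl1 this low cannot be ranked between stromal labels.

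The accessory receptor gene Il1rap, shared by the receptors for IL-1, IL-33 and IL-36, was lowest where Il33 was highest. TMC4 had 3.03 CPM of Il1rap, the lowest of the 24 labels. TMC3 had 14.5 CPM, which was 4.78-fold higher (3.29 to 7.12), with 4.04% of genes at least 3-fold higher in that direction. TMC2 had 32.5 CPM, 10.7-fold higher (7.65 to 15.5), with 7.39% of genes past 3-fold. TMC1 had 31.9 CPM (10.5-fold, 8.00% of genes), capFb 35.9 (11.9-fold, 8.14%) and vSMC/PC 18.1 (5.97-fold, 5.39%). Myeloid had the highest level, 85.1 CPM, 28.1-fold above TMC4, with 12.9% of genes past 3-fold. Low Il1rap did not go with high Il33 throughout, since cTEC had 35.7 CPM and early Pr 35.3.

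**Figure D5:**
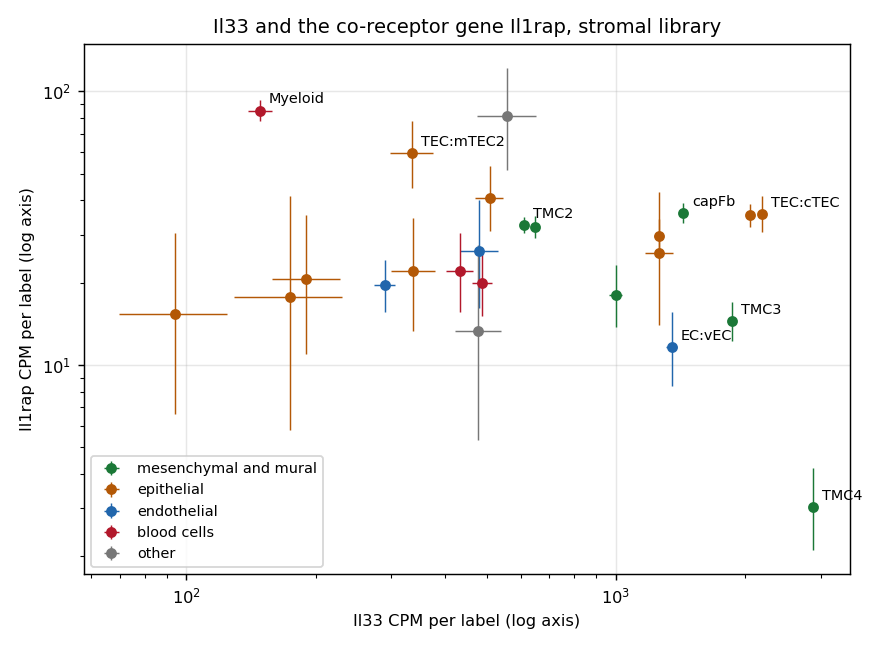
Il1rap against Il33 (CPM, both log axes) in the 24 stromal labels; bars are exact Poisson 95% intervals and colours give the tissue class. TMC4 sits alone at 2872 CPM of Il33 and 3.03 of Il1rap, and cTEC at 2181 and 35.7. Classes follow the label names.

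Of 16 receptor and signalling genes, 15 had at least 20 UMIs in some stromal label, and none had a highest label 3-fold above the next, where 4.55% of all genes had one. Myd88, the adaptor, was highest in vEC at 44.8 CPM, Traf6 in Thymocyte at 117, and Irak4 in TMC4 at 25.3. Nfkbia, the NF-κB inhibitor that NF-κB itself induces, was highest in vEC at 1849 CPM, 1.98-fold above mTEC2. Irak3, a brake on IRAK signalling, was highest in Myeloid at 138 CPM. Sigirr, an inhibitory receptor of the family, was at 46.2 CPM in vEC and 0.0865 in TMC4. In the thymocyte library the 1 gene of 15 with a 3-fold lead was Irak3, at 129 CPM in Treg, 3.04-fold above Pre-Treg, where 4.68% of all genes had such a lead.

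Other ligands of the IL-1 family did not share the stromal pattern of Il33. Of 10 ligand genes in the files, 5 had at least 20 UMIs in a stromal label, and 2 had a 3-fold lead (4.55% of all genes), Il1b in mTEC2 at 88.0 CPM and Il18 in mimetic(tuft) at 60.5 on 17 UMIs. Il36rn, an IL-36 antagonist, was highest in cTEC at 6.62 CPM, and Il1rn, the IL-1 antagonist, in mTEC2 at 27.4. In the thymocyte library Il1b (138 CPM) and Il18 (195 CPM) were highest in B+myeloid. Among receptors, 3 of 9 measured had a 3-fold lead in the stroma (4.55% of all genes), Il18rap in Myeloid, Il1rapl1 in nmSC and Il1rapl2 in mTEC2. The 4.55% counts every label as at least 3 UMIs, which in mimetic(tuft) is 10.7 CPM. Counted so, Il18rap at 29.7 CPM had no 3-fold lead. The IL-1 receptor gene Il1r1 was highest in vEC (438 CPM) and TMC3 (306), and the decoy Il1r2 in mTEC2 (257).

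Of 12 genes for proteases that can cut IL-33, 6 had a stromal label 3-fold above the next, against 4.55% of all genes. Elane, Ctsg and Prtn3, the serine proteases of neutrophil granules, were highest in Myeloid, at 2727, 5353 and 1274 CPM. Cma1 and Tpsab1 were highest in MEC through the single cell described above, and Gzmb in mTEC2 at 280 CPM.

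Of 12 genes of the type 2 response, 8 had at least 20 UMIs in a stromal label and 2 had a 3-fold lead (4.55% of all genes), Gata3 in Thymocyte (124 CPM) and Il9 in mTEC2. The cytokine transcripts Il4, Il5 and Il13 were scarce. Il4 had 3, Il5 had 5 and Il13 had 4 UMIs in the labels of the stromal library, and Klrg1 had none. In the thymocyte library Il5, Il13 and Il9 had none. Il9 reached 201 CPM in mTEC2 and Il2ra 234 CPM in mTEC1. Rora, a nuclear receptor also used by innate lymphoid cells, was highest in TMC4 at 1433 CPM. Gata3 was highest in DP-sig of the thymocyte library, at 465 CPM. Of 5 other alarm genes, 4 were measured and 2, the granulocyte genes S100a8 and S100a9, had a 3-fold lead, in Myeloid, against the same 4.55%. The alarm cytokine gene Tslp peaked in mTEC2 (117 CPM) and aaTEC1 (102), both labels of low Il33, and Il25 had 10 UMIs.

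The genes whose levels over the 24 stromal labels followed Il33 most closely, among 13975 compared by Pearson r of log2(CPM + 1), were Nlgn2 (0.815), Slc39a14 (0.808), Dse (0.793), Apoe (0.778) and Col12a1 (0.777). Nlgn2, a neuronal adhesion gene, was also highest in TMC4 (51.1 CPM) and TMC3 (26.0). Slc39a14, a metal transporter, peaked in vEC at 69.1 CPM, Dse, which modifies dermatan sulfate, in capFb at 113, and Apoe, the apolipoprotein, and Col12a1, a collagen, in early Pr at 24480 and 408. The labels share 1 library, and Il1rl1 had too few UMIs for such a ranking.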

How the data were processed

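Droplet (10x Genomics) RNA libraries of CD45-negative stroma and of thymocytes from Lewis rats were analysed, with 1 sample per group. The deposited counts are UMIs, as whole numbers, for each gene in each barcode. Per the file headers, the authors made them using Cell Ranger 8.0.0. Seurat 5.3.0 and the genome build mRatBN7.2 are named per the submitters' processing notes. The deposited percent of mitochondrial UMIs per cell, given by the authors, was under 5% in annotated stromal cells, reached 54.2% in the thymocyte library and was used only for this description. Cell types were the authors' projected label, or their cluster where none was given.

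UMIs were summed per label of at least 20 cells and given as CPM, with exact Poisson intervals, exact conditional intervals of ratios and Clopper-Pearson intervals of shares. A fold over all genes was counted past 3-fold, among genes with at least 20 UMIs in the labels compared. A count of 0 was bounded by 3 UMIs. For the share of all genes with a 3-fold lead, every label was counted as at least 3 UMIs. For the listed genes only the second label was, which is the looser rule. Levels are not per length, so they were not compared between genes. Promoter windows came from RefSeq (GRCr8). Genes named were Il33, Il1rl1, the members of lists of receptors, ligands, proteases, type 2 genes, alarmins and cell markers, and the 5 genes most like Il33. Il37, also listed, was not among the feature names matched. The members and lists were chosen with earlier results of these data known.

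Alternatives were filters on depth and on markers, the mean of the cells' CPM, other totals and thinning. The scripts were tested on simulated data. Computations ran in Python 3.11.15 (pandas 2.3.3, NumPy 2.4.6, SciPy 1.17.1), and plots in matplotlib 3.10.9.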

Additional observations from a re-analysis of the deposited data

Results flagged for a closer look

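Barcodes of the stromal library that the authors left without annotation also held Il33, at 526 CPM from 4561 UMIs, against 1222 CPM in the annotated cells. These 2934 barcodes entered no comparison above.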

How the results depend on the processing

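No paired analysis was possible because 1 sample stood for each group. Of 370 alternative values, 244 moved by less than their counting interval, 126 moved further and none reversed. Among the Il33 levels of TMC4 and cTEC, their ratio and the Il1rl1 levels of the libraries, 24 moved further and 18 did not. TMC4, cTEC and early Pr held the top 3 places for Il33, in this order, under all 7 settings that gave a value for all 24 labels. In cTEC, Il33 was 2271 CPM without the deepest cells (99th percentile of UMIs or above), 2121 as a mean of the cells' CPM, 2777 on totals without mitochondrial, ribosomal protein and haemoglobin genes, 2100 thinned to 1000 UMIs and 2567 in cells without mesenchymal markers. In alternatives chosen after seeing the data, cTEC-labelled cells had 93.6 CPM in cluster TEC-a, 2667 in TEC-b and 1813 in TEC-c. TMC4 had 2664 CPM as a mean, 3363 on the reduced total and 2625 thinned. The ratio of TMC4 to cTEC, 1.32 as reported, was 1.26 without the deepest cells, 1.26 as a mean, 1.21 on the reduced total, 1.19 thinned and 1.12 without cells holding markers of the other lineage. Against TEC-a, TEC-b and TEC-c alone it was 30.7, 1.08 and 1.58. Stromal Il1rl1 was 0.141 CPM without the deepest cells and 0.152 thinned. Thymocyte-library Il1rl1 was 0.212 CPM as a mean, 0.235 thinned and, in an alternative chosen after seeing the data, 0.202 without the cell with 15 UMIs. In another chosen after seeing the data, Il33 of the thymocyte library was 1.44 CPM without 1 cell; it was 1.29 as a mean and 1.18 thinned. Beyond what each setting leaves out, the cause was not tested. Cluster names alone could give no cTEC value, since no cluster bears that name. Il1rl1 rests on 32 and 28 UMIs in the stromal and thymocyte libraries.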
